A study of Arabidopsis thaliana with 12 samples.

Results

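Transcripts of *jazQ phyB* seedlings were compared with those of wild-type (WT) seedlings across all genes. The libraries were chosen by their genotype labels: 3 of *jazQ phyB* and 3 of WT, which is 6 of the 12 libraries sequenced. *jazQ phyB* carries T-DNA insertions in 5 JAZ genes (*JAZ1*, *JAZ3*, *JAZ4*, *JAZ9* and *JAZ10*) together with the *phyB-9* allele of *PHYB*, and WT was Col-0, an accession of *Arabidopsis thaliana*. The parent lines *jazQ* (the 5 JAZ insertions alone) and *phyB* (*phyB-9* alone), with 3 libraries each, entered the fit and are given where a result turns on them. Each library was made from a pool of about 200 whole seedlings, 8 days old and kept under continuous light on solid, sucrose-containing medium, so roots and shoots were read together. Each genotype was a single line. Mutant and WT seedlings shared plates, but the replicate numbers are not tied to plates, so the p-values measure the spread between these libraries, which may in part be technical.

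JAZ proteins are repressors that bind MYC and other transcription factors. The hormone jasmonate triggers their destruction, which frees those factors to switch on defence genes against insects, such as those for glucosinolates. Phytochrome B is a red-light receptor that in its active form removes PIF transcription factors, and plants without it elongate, flower early and express shade-avoidance genes even in full light.

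The *jazQ phyB* libraries held 22286351, 16804513 and 15978702 counts, against 26347184, 13350388 and 17969514 in WT. A floor of 3 counts equalled 0.132 to 0.181 CPM (a gene's count divided by the library total after edgeR's TMM scaling) in *jazQ phyB* and 0.116 to 0.23 CPM in WT. PCR duplicates could not be recognised, so such floors cover counting error only. Every pair of *jazQ phyB* libraries (chi-square divided by its degrees of freedom 5.46 to 9.77) and of WT libraries (6.08 to 14.7) differed beyond sampling noise, and each library counted as 1 sample. Chloroplast genes held 0.41 to 0.427% of the counts in *jazQ phyB* and 0.553 to 0.988% in WT, with the highest share in WT replicate 3. Of 20957 genes tested, those with a Benjamini-Hochberg adjusted p below 0.01 in edgeR's quasi-likelihood test were called higher or lower, and all adjusted p-values given are from that test. Levels are in CPM, and a fold change is the log2 ratio of *jazQ phyB* over WT unless another line is named.

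The mutated genes differed in how many reads they still gave. *JAZ1*, a repressor of MYC factors, had 6.76, 7.17 and 5.44 CPM in *jazQ phyB*, against 60.8, 49.8 and 46.4 CPM in WT, a log2 fold change of −3.02 (SE 0.17, adjusted p = 6.56e-08). *JAZ4* was also lower in the mutant, with 2.94, 3 and 3.26 CPM, against 6.47, 5.59 and 5.05 CPM in WT (−0.91, SE 0.15, adjusted p = 0.000874). *PHYB* had 56, 53.6 and 50.7 CPM, against 83.9, 88 and 78.9 CPM in WT (−0.64, SE 0.06, adjusted p = 1.41e-05). The groups did not overlap for any of these. *JAZ3* and *JAZ10* went the other way. *JAZ3* had 554, 520 and 513 CPM in *jazQ phyB*, against 12.4, 15.4 and 16.6 CPM in WT, a log2 fold change of 5.17 (SE 0.12), and *JAZ10* had 213, 204 and 200 CPM, against 3.45, 4.06 and 3.41 CPM (5.84, SE 0.10). Reads are summed along a gene, so these values do not separate a complete transcript from a part that begins or ends at an insertion. *JAZ9* overlapped between the genotypes, with 73.8, 56.7 and 70 CPM in *jazQ phyB* and 61.3, 88 and 75.6 CPM in WT (adjusted p = 0.415), so its count does not tell the genotypes apart.

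Against WT, 2047 genes were called, which is 9.77% of those tested. Of these, 786 (3.75%) were higher and 1261 (6.02%) lower in *jazQ phyB*. Counts of list members called, given below, are to be read beside these shares. The rises were fewer but larger. Their median log2 fold change was 0.72, with quartiles of 0.48 and 1.18, while that of the falls was −0.47, with quartiles of −0.66 and −0.36. At 2-fold or more, 263 genes were higher and 132 lower, and at 4-fold or more 73 were higher and 13 lower. Leaving out any single *jazQ phyB* or WT library lowered the number of calls. It was 1190, 1245 and 1792 without *jazQ phyB* replicate 1, 2 and 3, and 1416, 1447 and 1686 without WT replicate 1, 2 and 3. The split between directions differed with the unit and test together. Higher genes made up 38.4% of the calls and lower genes 61.6%, and with upper-quartile scaling of the counts alone these shares were 44% and 56%. In limma-trend on log2(TPM + 1), which changed both the unit and the test, higher genes made up 72.5% and lower genes 27.5%. TPM, the deposited value scaled for transcript length and library size, moved the median log2 fold change of all genes tested to 0.10, against 0.00 in the TMM-scaled counts, so medians of gene groups are to be read beside those values.

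**Figure D1:**
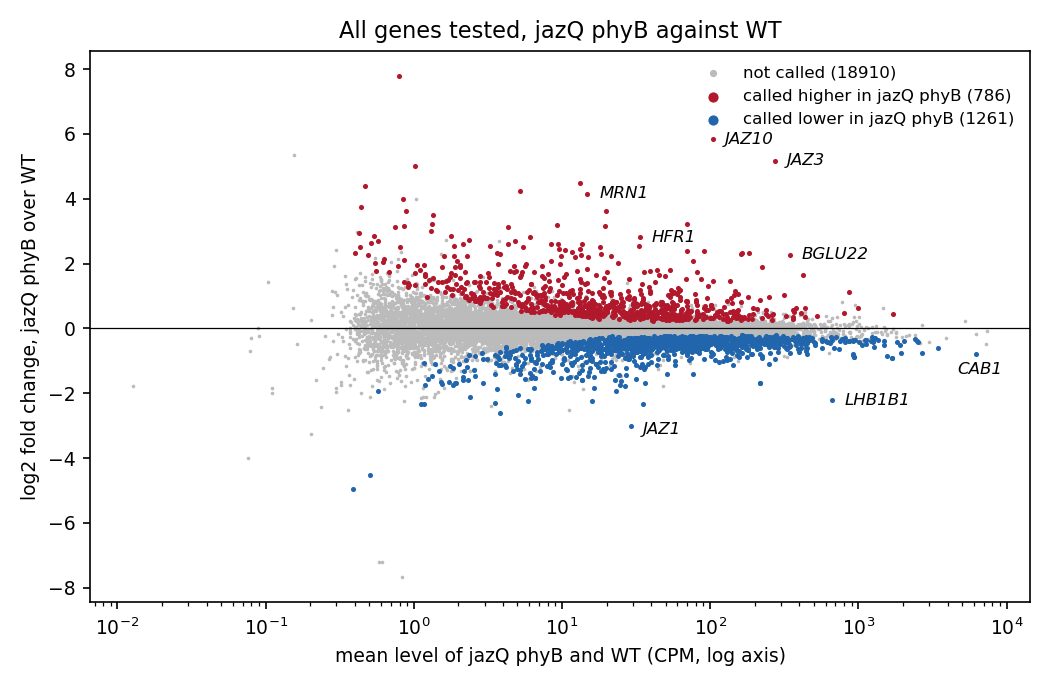
Each point is 1 of the genes tested, placed by its mean level in *jazQ phyB* and WT (CPM, log axis) and its log2 fold change in *jazQ phyB* over WT. The 786 genes called higher (red) reach further from the zero line than the 1261 called lower (blue), and *JAZ3* and *JAZ10* stand at the top right.

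The falls gathered among highly expressed genes. In the eighth of genes with the lowest mean level, 74 were higher and 21 lower in *jazQ phyB* (2.82% and 0.802%). In the eighth with the highest level, 82.9 to 7123 CPM, 100 were higher and 448 lower (3.82% and 17.1%). The share of genes called higher thus stayed within 2.82 to 4.39% over the 8 level classes, and the share called lower grew with level. In limma-trend on log2(TPM + 1), 172 of the 505 lower genes were in the top eighth and 17 in the lowest, so the falls again gathered there, but 240 genes of the top eighth were higher.

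**Figure D2:**
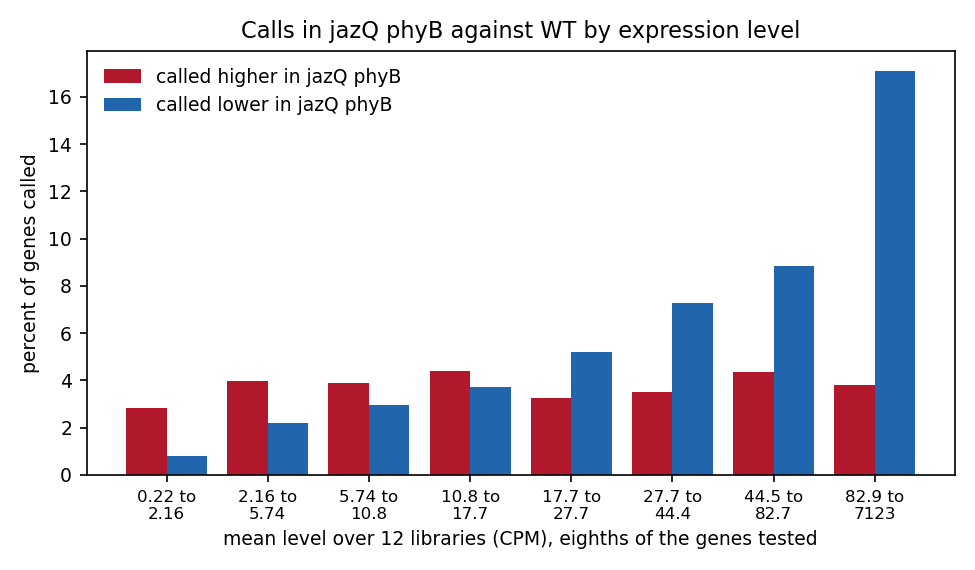
Bars give the percent of genes called higher (red) and lower (blue) in *jazQ phyB* against WT, in 8 classes of mean level over 12 libraries (CPM). The percent called lower runs up to 17.1% in the top class, and the percent called higher is 3.82% there.

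The 12 largest rises held genes of several kinds. *AT4G22214*, annotated as a defensin-like protein, had 25.7, 28.1 and 22.4 CPM in *jazQ phyB*, against 0.581, 1.23 and 1.82 CPM in WT, a log2 fold change of 4.48 (SE 0.25, adjusted p = 6.08e-08). *MRN1*, which encodes the triterpene cyclase marneral synthase, had 28.9, 35.8 and 18.9 CPM, against 0.504, 1.92 and 2.76 CPM in WT (4.15, SE 0.44, adjusted p = 2.56e-05). For both genes the lowest *jazQ phyB* library was far above the highest WT library. *AT3G44870*, annotated as a methyltransferase, had 0 counts in all 3 WT libraries and 93 counts in *jazQ phyB*, which is at least 9.09-fold higher against a floor of 3 counts per library. Its call was lost when any of 5 libraries was left out, with an adjusted p of up to 0.0204 (without WT replicate 1). For *AT4G12170*, a thioredoxin-family gene, 110 counts in *jazQ phyB* stood against 3 in WT (ratio 36.4, exact 95% counting interval 12.1 to 179). *AIR1*, first known as an auxin-induced gene of root cultures, was high but spread widely in the mutant, with 102, 196 and 81.2 CPM, against 6.28, 13.7 and 22.2 CPM in WT (3.21, SE 0.48). The rest of the 12 largest rises were *JAZ3*, *JAZ10*, the lectin gene *JAL23*, the marneral-cluster gene *CYP705A12* (3.61), *AT3G55310* (3.63), *PHT1;2* (3.98) and *BAM5* (3.51). The calls of *PHT1;2*, a phosphate transporter with a near-identical neighbour, and *BAM5*, a beta-amylase, were lost without WT replicate 1 (adjusted p = 0.0359 and 0.022). That of *BAM5* was also lost without WT replicate 3, and that of *PHT1;2* without any of 6 other libraries. *BAM5* was uneven in the mutant, with 5.23, 0.999 and 1.09 CPM, against 0.155, 0.383 and 0.176 CPM in WT.

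Of the 6 rises that added most in TPM, *JAZ3* alone was also among the 12 largest by fold. *NIT1*, a nitrilase that can act on indole nitriles, had 1221, 1216 and 1121 CPM in *jazQ phyB*, against 545, 551 and 548 CPM in WT, a log2 fold change of 1.11 (SE 0.07). *AT5G26260*, a TRAF-like gene, had 648, 636 and 637 CPM, against 191, 224 and 198 CPM in WT (1.65, SE 0.07, adjusted p = 1.11e-09). Both were tightly grouped within each genotype and far apart between them.

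The largest falls were a mixed set. *ERF2*, an ethylene response factor, fell to 6.37, 5.11 and 4.9 CPM in *jazQ phyB*, against 21.5, 28.5 and 28.5 CPM in WT, a log2 fold change of −2.24 (SE 0.16, adjusted p = 6.52e-07). *AT5G62360*, annotated as an inhibitor of invertase or pectin methylesterase, fell to 7.91, 12.6 and 8.46 CPM, against 39.7, 35.7 and 34.7 CPM in WT (−1.94, SE 0.15). *AT5G62240*, annotated as a microtubule-associated protein, was low in both genotypes, with 0.351, 0.235 and 0.605 CPM in *jazQ phyB*, against 2.48, 1.46 and 1.94 CPM in WT (−2.34, SE 0.33). None of these overlapped between genotypes. Several calls in the same set did not hold in every fit without 1 library. *KIN1*, a cold-induced gene with a near-identical neighbour, fell by 2.62 on the log2 scale, and its call was lost without WT replicate 2 or any one *jazQ phyB* library (adjusted p up to 0.0132). *ZAT7*, a zinc-finger gene, lost its call without *jazQ phyB* replicate 2 (adjusted p = 0.0113), the pseudogene *RLP18* without *jazQ phyB* replicate 1 (0.0109), the late-embryogenesis gene *AT3G02480* without *jazQ phyB* replicate 1 or WT replicate 1 (up to 0.0178), and the calcium-binding gene *AT3G29000* without any of 6 libraries (up to 0.0362). The ribosomal RNA loci *AT2G01020* and *AT3G41979* held identical values and count as 1 gene. They had 126, 74.4 and 106 CPM in *jazQ phyB* and 168, 376 and 458 CPM in WT (−1.70). They were not called against *jazQ* (−0.02, adjusted p = 0.981) or *phyB* (0.41, adjusted p = 0.327). Every library of those parent lines was also below the lowest WT library. Whether this gap came from the WT plants or from library preparation was not tested. The antenna genes among the largest falls are given with photosynthesis.

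In the jasmonate pathway itself, several enzyme genes were called and most regulator genes were not. Of 12 tested genes of jasmonate synthesis, 5 were higher (41.7%) and 1 lower (8.33%), with a median log2 fold change of 0.44. Over all genes tested, 3.75% were higher and 6.02% lower. The summed TPM of this list overlapped, at 599 to 676 in *jazQ phyB* and 528 to 651 in WT, and was 815 to 1144 in *jazQ*. *OPR3*, the reductase of the last plastid-derived intermediate, had 30.4, 28.4 and 29.7 CPM in *jazQ phyB*, against 16.8, 17.6 and 16.6 CPM in WT (0.80, SE 0.07, adjusted p = 2.72e-06). *AOC2*, an allene oxide cyclase from a family of similar copies between which reads may be split wrongly, was the one that fell, with 80, 99.4 and 81.7 CPM, against 170, 206 and 145 CPM in WT (−0.99, SE 0.13). Of 10 genes that conjugate or inactivate the hormone, 3 were higher (30%) and none lower. *ST2A*, a sulfotransferase that acts on hydroxyjasmonate, had 21.9, 25.3 and 20.3 CPM in *jazQ phyB*, against 5.7, 3.83 and 4.06 CPM in WT (2.26, SE 0.19, adjusted p = 4.03e-06). *JOX2*, a jasmonate oxidase, had 50, 39.7 and 40 CPM, against 28.4, 24.3 and 23.8 CPM (0.76, SE 0.10). The transcription factor genes did not pass the test: none of 6 tested MYC and JAM genes was called by edgeR or DESeq2 (2 had an unadjusted p below 0.05), and *MYC2* had 59.9, 47.5 and 46.2 CPM in *jazQ phyB* and 42.4, 48.6 and 41 CPM in WT, which overlap (adjusted p = 0.16). Of the 7 other JAZ genes tested, *JAZ5* alone was called, with 2.9, 2.35 and 1.87 CPM in *jazQ phyB*, against 0.969, 1.07 and 0.94 CPM in WT, and without any of 4 libraries its call was lost (adjusted p up to 0.0235, without *jazQ phyB* replicate 1).

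Known outputs of the wound branch spread between libraries. All 8 tested had a positive log2 fold change (median 0.56). Of these 1 was called (12.5%, where 3.75% of all genes tested were higher), *VSP2*, a vegetative storage protein toxic to insects. It had 20.7, 16.4 and 10.9 CPM in *jazQ phyB*, against 1.51, 4.45 and 2.7 CPM in WT (2.60, SE 0.56, adjusted p = 0.00478), and the call was lost without *jazQ phyB* replicate 1 or 2 or WT replicate 1 or 3 (adjusted p up to 0.0299). *LOX2*, a lipoxygenase, missed the threshold with 185, 183 and 128 CPM in *jazQ phyB* and 83.1, 124 and 91.8 CPM in WT (0.74, adjusted p = 0.0294). It is also in the list of jasmonate synthesis. Of 4 tested genes of the jasmonate-ethylene branch, which acts against fungi, none was called by edgeR or DESeq2 (1 had an unadjusted p below 0.05), and their median was −0.21.

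Glucosinolates are sulfur-rich defence compounds that release toxins when a leaf is chewed, and one group of them is made from methionine. Of 9 genes that lengthen the methionine side chain, 7 were higher (77.8%) and none lower (median 1.02). Over all genes tested, 3.75% were higher. *MAM3*, a synthase of that step, had 102, 103 and 103 CPM in *jazQ phyB*, against 47.4, 36.7 and 21.6 CPM in WT (1.52, SE 0.18, adjusted p = 7.17e-05). *IMD1*, the dehydrogenase of the same cycle, had 202, 228 and 174 CPM, against 110, 102 and 61.3 CPM in WT (1.14, SE 0.16). WT replicate 3 was the lowest WT library for both, and the groups did not overlap. Of 18 genes of the aliphatic core pathway, 5 were higher (27.8%) and none lower (median 0.62). *CYP79F1*, the first enzyme of the core, had 168, 165 and 122 CPM, against 57.9, 73.2 and 35.9 CPM in WT (1.46, SE 0.21, adjusted p = 0.000363). The count of 5 became 2 without *jazQ phyB* replicate 1 or 2, and *GSTU20*, a transferase placed in this pathway and among the largest gains in TPM, lost its call without any of 6 libraries (adjusted p up to 0.031). The indole branch, made from tryptophan, had 2 of 13 genes higher (15.4%, median 0.18), 1 without WT replicate 2 or *jazQ phyB* replicate 1 or 2. *CYP79B3*, its entry enzyme, had 137, 132 and 105 CPM in *jazQ phyB*, against 84.5, 84.2 and 60.4 CPM in WT (0.71, SE 0.12, adjusted p = 0.00124).

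ER bodies are spindle-shaped compartments, found in roots and seedlings of this plant family, that store beta-glucosidases related to the enzymes that break down glucosinolates. Of 9 genes of the ER body system, 7 were higher (77.8%) and none lower (median 0.57), where 3.75% of all genes tested were higher. *BGLU22*, a beta-glucosidase, had 607, 525 and 581 CPM in *jazQ phyB*, against 112, 116 and 128 CPM in WT (2.27, SE 0.09, adjusted p = 1.11e-09). *NAI2*, which shapes the ER body, had 923, 986 and 886 CPM, against 629, 706 and 674 CPM in WT (0.48, SE 0.07). *BGLU23*, the main glucosidase of this compartment, missed the threshold with 5936, 5936 and 5100 CPM in *jazQ phyB* and 4688, 4711 and 5007 CPM in WT (0.24, adjusted p = 0.0611). All 7 jacalin-related lectins tested were higher (median 0.63), 4 of them without WT replicate 1. *PBP1*, a lectin that clusters the glucosidase on cell damage, had 1989, 2093 and 1770 CPM, against 1441, 1413 and 1478 CPM in WT (0.43, SE 0.07), and *JAL34* had 1254, 1264 and 1122 CPM, against 761, 739 and 859 CPM (0.63, SE 0.08). *JAL23* had 11.7, 10.6 and 7.07 CPM, against 0.0775, 1.53 and 0.353 CPM (4.23, SE 0.78), and without WT replicate 1 its call was lost (adjusted p = 0.0119). Of 13 myrosinase and breakdown genes, 3 were higher (23.1%) and none lower (median 0.49). *MBP2*, a myrosinase-binding protein, had 8.13, 7.87 and 5.92 CPM, against 0.543, 1.92 and 1.47 CPM in WT (2.61, SE 0.44), while *TGG1*, the myrosinase of guard cells, overlapped between genotypes (adjusted p = 0.577).

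Genes of the root triterpene clusters, which lie side by side in the genome and make thalianol, marneral and related compounds, had a median of 2.32, the highest of the lists described. All 8 tested were higher in *jazQ phyB*, and all 8 were called whichever library was left out. *THAS1*, thalianol synthase, had 336, 333 and 244 CPM in *jazQ phyB*, against 43.6, 71 and 71.5 CPM in WT (2.31, SE 0.22, adjusted p = 1.25e-05). Its neighbours *CYP708A2* and *CYP705A5*, which oxidise thalianol, differed by 2.34 (SE 0.23) and 2.30 (SE 0.25), and in each the third *jazQ phyB* library was the lowest of the mutant. Some root markers were also called higher. The summed TPM of 8 root hair markers was 75.1 to 79.5 in *jazQ phyB* and 44.1 to 56.7 in WT, with 3 higher, and that of 7 root endodermis markers was 87.5 to 106 in *jazQ phyB* and 68.2 to 72.4 in WT, with 2 higher. The root hair count was 1 without WT replicate 2 or 3 or *jazQ phyB* replicate 1, and the endodermis count was 1 in 9 of the 12 fits without 1 library. The 3 root cap markers summed to 6.12 to 6.39 TPM in *jazQ phyB* and 4.32 to 5.22 TPM in WT, and none was called by edgeR or DESeq2 (0 had an unadjusted p below 0.05). None of these markers was at 0 throughout. The part of such markers in the rises was not tested, and in these bulk samples more cells of a type and more RNA per cell cannot be told apart.

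**Figure D3:**
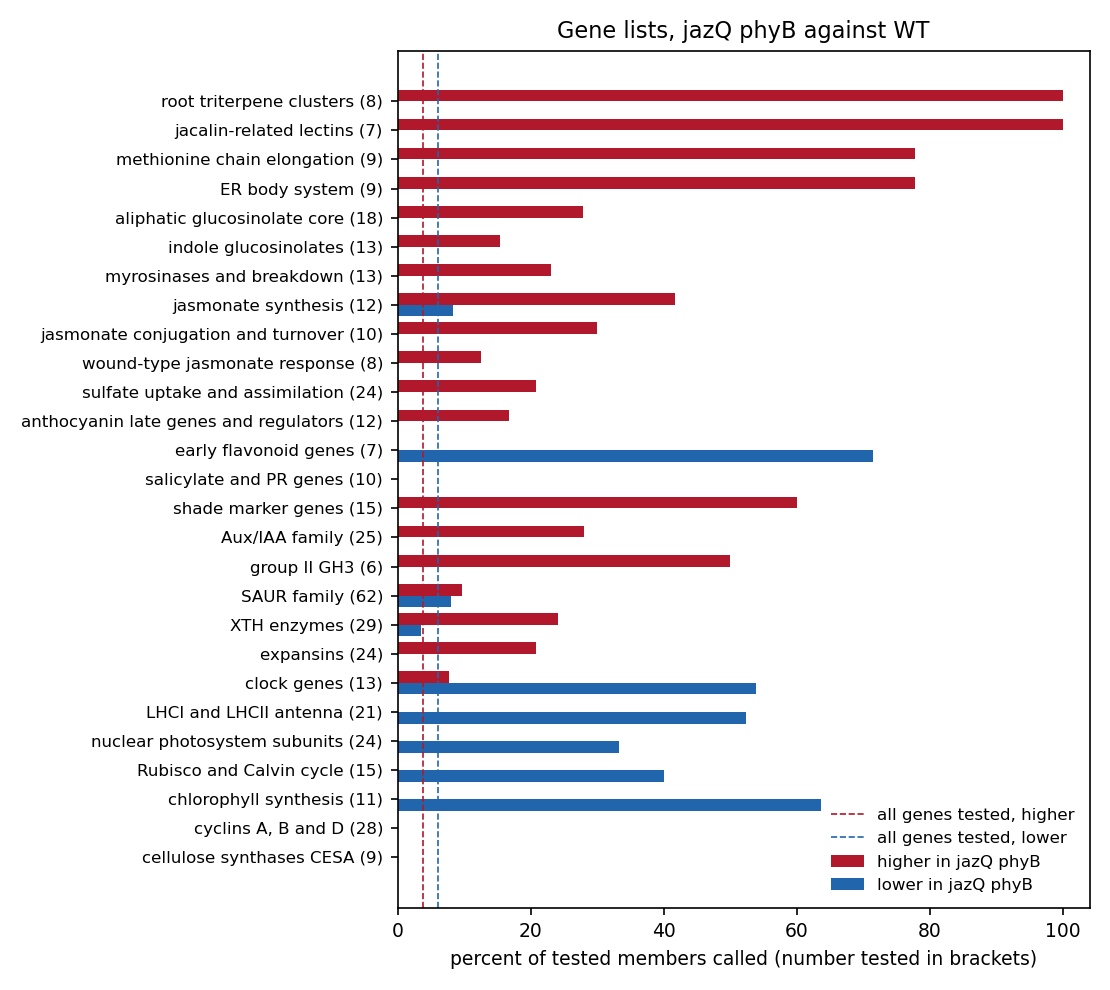
Bars give the percent of tested members called higher (red) and lower (blue) in *jazQ phyB* against WT for 27 gene lists, with the number tested in brackets, and dashed lines give the shares over all genes tested (3.75% higher and 6.02% lower). The root triterpene and jacalin lists are at 100% higher. The early flavonoid, chlorophyll, clock and antenna lists have the longest bars for lower genes, followed by the Calvin cycle (40%) and photosystem subunits (33.3%).

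Of 7 early flavonoid genes, 5 were lower (71.4%, where 6.02% of all genes tested were lower) and none higher (median −0.58). *TT4*, chalcone synthase, which opens the pathway, had 215, 233 and 211 CPM in *jazQ phyB*, against 349, 312 and 326 CPM in WT (−0.58, SE 0.08, adjusted p = 0.000267). *MYB12*, an activator of these genes, had 4.26, 4.47 and 3.57 CPM, against 11.2, 10.9 and 8.52 CPM in WT (−1.31, SE 0.24), and *FLS1*, flavonol synthase, had 72.6, 79.6 and 73.3 CPM, against 121, 117 and 110 CPM (−0.63, SE 0.10). Of 12 late anthocyanin genes and regulators, 2 were higher (median 0.48), their summed TPM overlapped (188 to 215 in *jazQ phyB* and 184 to 225 in WT), and neither call held in every fit: the count was 0 without WT replicate 1 or 3 or *jazQ phyB* replicate 1 or 2, and 1 without WT replicate 2. Among them, *MYB90*, an activator of anthocyanin synthesis, had 4.26, 3.11 and 2.66 CPM in *jazQ phyB*, against 1.43, 1.61 and 0.705 CPM in WT (1.43, adjusted p = 0.00594, up to 0.0406 without *jazQ phyB* replicate 1). *DFR*, the first enzyme committed to anthocyanin, missed the threshold (1.00, adjusted p = 0.0227).

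None of 10 genes of salicylate and pathogenesis-related (PR) defence, which acts against microbes that feed on living cells, was called by edgeR's quasi-likelihood test (median −0.38). By an unadjusted p below 0.05 there were 6, by DESeq2 1 and by edgeR's exact test 3. *PR1* had 12.7, 3.29 and 1.15 CPM in *jazQ phyB* and 33.8, 11 and 10.8 CPM in WT. Its groups overlapped, and its adjusted p was 0.0925.

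Of 15 shade marker genes, 9 were higher (60%, where 3.75% of all genes tested were higher) and none lower (median 0.72). *HFR1*, which restrains the shade response, had 60.1, 61.9 and 54.4 CPM in *jazQ phyB*, against 9.3, 8.97 and 6.7 CPM in WT (2.81, SE 0.11, adjusted p = 8.95e-10). *HAT2*, a homeobox gene induced by auxin and shade, had 68.7, 69.4 and 84.9 CPM, against 50.9, 44.5 and 39.3 CPM in WT (0.72, SE 0.11). None of the 6 PIF genes tested was called higher, though 1 was in limma-trend on log2(TPM + 1), and 2 were lower: *PIF7*, with 7.6, 10.4 and 7.8 CPM, against 16.7, 18.6 and 14.9 CPM in WT (−0.96, SE 0.13), and *PIF4*, with 23.3, 28 and 20.3 CPM, against 38.8, 43.9 and 49.4 CPM in WT (−0.88, SE 0.15). Both calls held whichever library was left out.

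Auxin is the growth hormone that PIF factors raise through YUCCA enzymes, and Aux/IAA, GH3 and SAUR genes are its quick targets. *YUC8* was the only one of 9 auxin synthesis genes called, with 5.18, 4.82 and 5.8 CPM in *jazQ phyB*, against 2.29, 2.15 and 2 CPM in WT (1.29, SE 0.17, adjusted p = 0.000178). Of 25 Aux/IAA genes, 7 were higher (28%) and none lower (median 0.21). This list shares *IAA19* (1.63) with the shade markers, so the lists are not separate. *IAA29* had 17.1, 17.5 and 18.1 CPM, against 4.15, 3.07 and 2.35 CPM in WT (2.42, SE 0.15, adjusted p = 2.16e-07). Of 6 group II GH3 genes, which attach amino acids to auxin, 3 were higher (median 0.49), with *GH3.5* at 73.9, 80.6 and 64.6 CPM, against 31.8, 32 and 42.1 CPM in WT (1.05, SE 0.15). The SAUR family, whose members promote cell expansion, showed no common direction: of 62 tested, 6 were higher and 5 lower, and the median was −0.07 but 0.03 in log2(TPM + 1). The SAUR counts were unstable, with 3 higher without WT replicate 2 or 3 or *jazQ phyB* replicate 1 or 2, and with 1 lower gene when WT replicate 1 or *jazQ phyB* replicate 2 was left out and 3 when *jazQ phyB* replicate 1 was. *SAUR22*, from a tandem group of near-identical genes whose reads may be split wrongly, had 2.2, 3.06 and 1.93 CPM in *jazQ phyB*, against 0.233, 0.23 and 0.294 CPM in WT (3.21, SE 0.29, adjusted p = 7.57e-06). *SAUR57* was the largest SAUR fall, with 1.14, 0.881 and 0.725 CPM, against 3.41, 2.91 and 2.53 CPM (−1.67, SE 0.29).

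**Figure D4:**
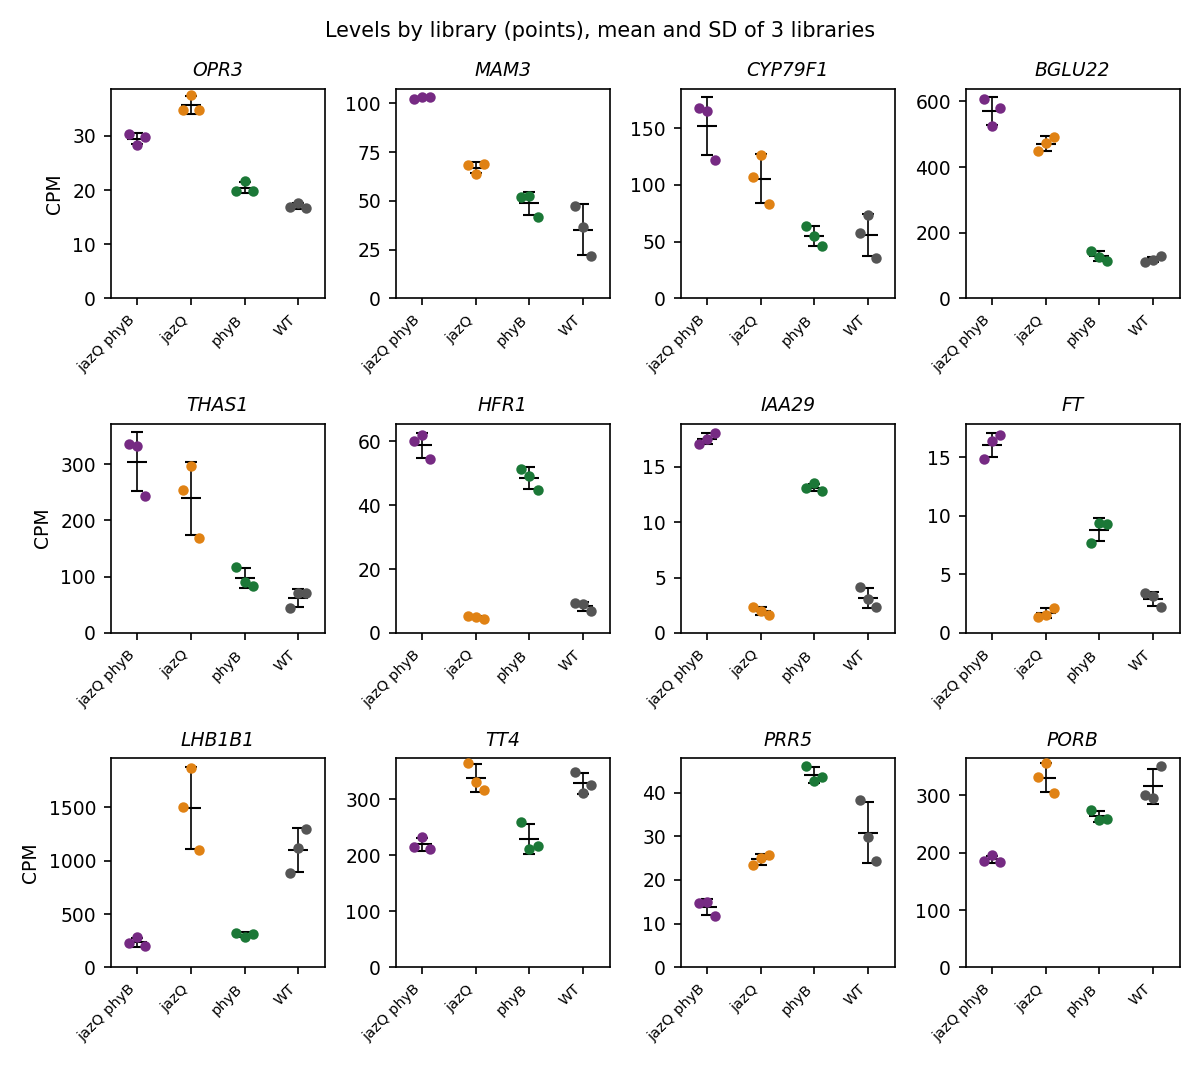
Levels in CPM of 12 named genes in each library (points) of *jazQ phyB*, *jazQ*, *phyB* and WT, with the mean and SD of 3 libraries as a bar. *HFR1*, *IAA29* and *FT* are high in *jazQ phyB* and *phyB*, and *BGLU22* and *THAS1* in *jazQ phyB* and *jazQ*; *PRR5* and *PORB* are lowest in *jazQ phyB*.

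Among wall genes tied to growth, the shares higher were above the 3.75% of all genes for expansins and XTH enzymes. Expansins, which loosen walls, had 5 of 24 higher (20.8%) and none lower (median 0.23), between 2 and 4 in fits without 1 library, and XTH enzymes, which cut and rejoin xyloglucan, had 7 of 29 higher (24.1%) and 1 lower (median 0.32), with 3 higher without *jazQ phyB* replicate 1 and 4 without *jazQ phyB* replicate 2 or 3 or WT replicate 1 or 2. *EXPA18*, an expansin of root hairs, had 9, 9.52 and 11.2 CPM in *jazQ phyB*, against 5.66, 5.29 and 5.23 CPM in WT (0.87, SE 0.12). *XTH4* had 597, 626 and 555 CPM, against 449, 443 and 472 CPM in WT (0.38, SE 0.06). None of 9 cellulose synthases and none of 28 cyclins was called by edgeR or DESeq2 (medians 0.12 and 0.06, with 2 and 4 genes at an unadjusted p below 0.05, and 1 cellulose synthase called in log2(TPM + 1)). Brassinosteroid genes had 3 of 14 higher, but 0 without WT replicate 1 or 2 and 1 without any *jazQ phyB* library. Among gibberellin genes, the receptors *GID1A* and *GID1C* were lower (−0.41 and −0.44) and *RGL1*, a DELLA repressor, was higher (0.95). The calls of *GID1C* and *RGL1* were lost without WT replicate 1 and those of *GID1A* and *RGL1* without *jazQ phyB* replicate 1 (adjusted p up to 0.0135). *GA3OX2*, with an adjusted p of 0.00999, lost its call without any of 9 libraries (up to 0.0771). The meristem gene *KNAT1* was higher, with 20.2, 24 and 18.9 CPM, against 11.5, 14.3 and 12 CPM in WT (0.75, SE 0.10), and *ATH1*, also active in the shoot apex, was lower, with 23.6, 23.9 and 22.6 CPM, against 39.8, 44.5 and 33.6 CPM in WT (−0.74, SE 0.09).

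Many photosynthesis genes were lower in *jazQ phyB*. The shares lower were 52.4% for antenna genes, 33.3% for photosystem subunits, 40% for the Calvin cycle and 63.6% for chlorophyll synthesis. Over all genes tested 6.02% were lower, and in the eighth with the highest level 17.1% were. The part of expression level in these shares was not tested. Of 21 genes for the light-harvesting antenna, which capture light for the photosystems, 11 were lower and none higher (median −0.46), and all 21 had a negative log2 fold change. *LHB1B1* stood out, with 232, 280 and 196 CPM in *jazQ phyB*, against 881, 1122 and 1295 CPM in WT (−2.22, SE 0.18, adjusted p = 2.83e-06). Its near-identical neighbour *LHB1B2*, with which reads may be exchanged, had 1983, 2230 and 1741 CPM, against 3305, 3317 and 3558 CPM (−0.77, SE 0.10). *CAB1*, which also has near-identical copies, had 4705, 4824 and 4134 CPM, against 7169, 7515 and 8780 CPM in WT (−0.78, SE 0.10), and *LHCA4* had 2938, 2665 and 2555 CPM, against 3686, 4180 and 4486 CPM (−0.60, SE 0.09). Of 24 nuclear photosystem subunits 8 were lower (median −0.34), led by *PSAE-2*, with 162, 172 and 145 CPM, against 265, 279 and 317 CPM in WT (−0.85, SE 0.08). Of 15 Rubisco and Calvin cycle genes 6 were lower (median −0.27), among them *GAPA*, with 1741, 1692 and 1789 CPM, against 2225, 2290 and 2359 CPM (−0.40, SE 0.06), while *RBCS1A*, a Rubisco small subunit, overlapped between genotypes (−0.09, adjusted p = 0.675). Of 11 chlorophyll synthesis genes 7 were lower (median −0.35). *PORB*, which makes chlorophyllide in light, had 185, 196 and 184 CPM, against 301, 296 and 351 CPM in WT (−0.75, SE 0.07, adjusted p = 1.57e-05).

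These counts differed with the unit and test and with single libraries. In limma-trend on log2(TPM + 1) the medians stayed negative (−0.35 for the antenna, −0.23 for photosystem subunits, −0.16 for the Calvin cycle and −0.23 for chlorophyll synthesis), and the numbers lower were 7, 3, 0 and 3. The antenna count was 7 without *jazQ phyB* replicate 1. For photosystem subunits it was 4 when WT replicate 3 or *jazQ phyB* replicate 1 was left out, 5 when WT replicate 2 or *jazQ phyB* replicate 3 was, and 13 when *jazQ phyB* replicate 2 was. That of the Calvin cycle was 3 without WT replicate 3 or *jazQ phyB* replicate 1 or 3. The summed TPM of the Calvin cycle list overlapped, at 30883 to 38721 in *jazQ phyB* and 35146 to 36091 in WT. For photosystem subunits it also overlapped (29354 to 35634 and 35389 to 39397), but not for the antenna or chlorophyll synthesis. The 7 mesophyll markers, of which 3 were lower, summed to 26452 to 33835 TPM in *jazQ phyB* and 32840 to 36088 TPM in WT, but they share genes with these lists. The 7 guard cell markers, none called by edgeR or DESeq2 and 3 with an unadjusted p below 0.05, summed to 1028 to 1159 TPM in *jazQ phyB* and 1020 to 1154 TPM in WT. The part of cell make-up was not tested.

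Most of the clock genes called were lower. Of 13 tested, 7 were lower (53.8%) and 1 higher (7.69%), where 6.02% and 3.75% of all genes tested were. Their median was −0.50, or −0.37 in log2(TPM + 1). *PRR5*, a repressor expressed towards evening, had 14.8, 15 and 11.7 CPM in *jazQ phyB*, against 38.3, 29.9 and 24.3 CPM in WT (−1.16, SE 0.14, adjusted p = 6.61e-05). *ELF4*, part of the evening complex, had 20.4, 23.2 and 17.7 CPM, against 40.6, 36.9 and 33.2 CPM in WT (−0.86, SE 0.12). The other genes called lower, named after their values were seen, were *GI* (−0.72), *LUX* (−0.61), *TOC1* (−0.58), *ELF3* (−0.54) and *PRR7* (−0.50). The morning gene *LHY* was higher, with 374, 360 and 369 CPM, against 283, 323 and 250 CPM in WT (0.37, SE 0.08), and its call was lost without any *jazQ phyB* library or without WT replicate 1 or 3 (adjusted p up to 0.0215). All plants grew in continuous light, so no time of day was imposed by dark. Of 8 flowering-time genes, *FT*, whose protein is the mobile flowering signal, was the one called, with 14.9, 16.4 and 16.9 CPM in *jazQ phyB*, against 3.37, 3.14 and 2.23 CPM in WT (2.44, SE 0.15, adjusted p = 2.28e-07).

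Promoters of the genes called in each direction held some motifs in different shares. Windows of 250 bases before to 50 after the start were searched on both strands, overlapping matches of different motifs counting for each, for 20769 of the genes tested (RefSeq, TAIR10.1 assembly). The PBE-box, a site that PIF factors are known to bind (CACATG), was in 21% of the 784 promoters of higher genes (95% Wilson interval 18.3 to 24), 11.9% of the 1244 promoters of lower genes (10.2 to 13.8) and 12.9% of all promoters. The evening element (AAAATATCT), known from evening-phased genes, was in 2.17% of the promoters of higher genes (1.36 to 3.45), 7.07% of those of lower genes (5.78 to 8.63) and 2.98% of all. The G-box (CACGTG), a site of both MYC and PIF factors, was in 11.2% of higher, 10.5% of lower and 8.66% of all promoters. The auxin response motif TGTCTC was in 14.4% of higher, 12.3% of lower and 13.7% of all. The GCC box (GCCGCC), bound by ethylene response factors, was in 1.91% of higher, 3.7% of lower and 2.63% of all. A match is a description of the letters and does not show that a factor binds there, and promoters are not independent replicates. Stretches of 30 bases are shown for 4 named genes, chosen after the search to show an example of the motif whose share was above that of all promoters in the gene's direction, each printed along the gene's own strand with the motif or its reverse complement in capitals. They are at chr4:14192504-14192533 (plus strand) for *YUC8*, chr5:5975175-5975204 (minus strand) for *SAUR22*, chr1:19349130-19349159 (minus strand) for *MBP2* and chr5:8358714-8358743 (minus strand) for *PRR5*.
YUC8, PBE-box: aatattcaacgcCACATGggatctcttctt
SAUR22, PBE-box: tagagacagaacCATGTGaactcttgctct
MBP2, PBE-box: tgttagttggacCATGTGggaagcatttct
PRR5, evening element: gattttttctAGATATTTTcttttctccac
The first 3 genes were higher and *PRR5* was lower in *jazQ phyB*, and the matches began 47, 99, 53 and 178 bases before the start of *YUC8*, *SAUR22*, *MBP2* and *PRR5*.

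Shares of other families are to be read beside the 3.75% of all genes that were higher and the 6.02% that were lower. Sulfate uptake and assimilation, which feeds glucosinolates, had 5 of 24 genes higher (20.8%, median 0.29), but leaving out 1 library changed the count: to 0 for *jazQ phyB* replicate 1, to 1 for WT replicate 3, to 2 for WT replicates 1 and 2 and *jazQ phyB* replicate 2, to 3 for *phyB* replicate 2 and to 8 for *jazQ* replicate 3. None of 7 sulfur-deficiency markers and none of 8 phosphate-starvation genes was called by the quasi-likelihood test (medians −0.15 and 0.17, with 2 and 4 genes at an unadjusted p below 0.05), while DESeq2 and edgeR's exact test called 1 gene in each list. *NIA1*, a nitrate reductase, had 591, 494 and 640 CPM in *jazQ phyB*, against 843, 861 and 999 CPM in WT (−0.65, SE 0.10, adjusted p = 0.00036). *ABI1*, a phosphatase that restrains abscisic acid signals, was the 1 of 9 genes of that response called, with 67.5, 58.2 and 57.7 CPM, against 116, 99.3 and 81.6 CPM in WT (−0.70, SE 0.12). Glycosyltransferases of the UGT family had 4 of 58 higher (6.9%) and 11 lower (19%). *UGT73C1*, from a tandem group, had 1.67, 1.06 and 0.665 CPM, against 4.03, 3.45 and 3 CPM in WT (−1.59, SE 0.26), and *UGT76B1*, which glucosylates isoleucic acid, had 37.3, 39 and 38.8 CPM, against 23.5, 21 and 23.7 CPM (0.75, SE 0.10). Both UGT counts fell without *jazQ phyB* replicate 1 or 2, to 2 higher and 7 lower, and the higher count also to 2 without WT replicate 2 or 3. Of 60 WRKY genes, 2 were higher and 1 lower, with 0 to 2 higher in the fits without 1 library, and of 9 type-A response regulators, which respond to cytokinin, none was called (3 had an unadjusted p below 0.05, and DESeq2 called 1).

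The parent lines show where the combined mutant stood apart. Against *jazQ*, 1422 genes (6.79% of those tested) were called, 552 (2.63%) higher and 870 (4.15%) lower in *jazQ phyB*. Against *phyB*, 2467 genes (11.8%) were called, 1260 (6.01%) higher and 1207 (5.76%) lower. Of the 20957 genes tested, those called against all 3 other genotypes numbered 115 above them and 267 below them. Genes that averaged under 1 CPM in every genotype were left out of these numbers. Because the same 3 *jazQ phyB* libraries enter each comparison, the numbers are given as counts only. *RbcX1*, a chaperone for Rubisco assembly, had 10.7, 12.4 and 10.4 CPM in *jazQ phyB*, against 41.5, 36.9 and 35 CPM in WT, and its log2 fold changes were −1.76 over WT, −1.73 over *jazQ* and −1.77 over *phyB* (SE 0.11 over WT, adjusted p = 2.65e-07 there). *AT5G23240*, a DNAJ gene, had 7.99, 15.8 and 11.8 CPM, against 62.2, 59.8 and 53.7 CPM in WT, with log2 fold changes of −2.32 over WT and −1.92 over *phyB*, and it was also called lower than in *jazQ* (adjusted p = 8.38e-06). *QQS*, a small gene that affects starch, had 1.19, 0.646 and 0.605 CPM, against 2.4, 2.15 and 3.41 CPM in WT (−1.65, SE 0.27). The others furthest below the rest were *AT5G62360*, given above, and *AT2G05812* (−2.24), an antisense locus that overlaps another gene and cannot be told apart from it, since the strand of the counting is not stated in the sources used here.

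On the other side, *GSTF14*, a glutathione transferase, had 9.8, 12.7 and 13.4 CPM in *jazQ phyB*, against 3.14, 4.45 and 5.58 CPM in WT, and differed by 1.47 over WT, 1.47 over *jazQ* and 1.79 over *phyB* (adjusted p = 0.000249 over WT). *AT2G25150*, an acyltransferase, had 5.84, 7.99 and 4.47 CPM, against 1.32, 1.07 and 1.18 CPM in WT (2.33, SE 0.30), and *PP2-A6*, a phloem lectin, had 2.68, 2.53 and 2.78 CPM, against 0.736, 0.536 and 0.353 CPM (2.22, SE 0.29). *SULTR1;1*, a sulfate transporter, had 5.84, 3.88 and 3.75 CPM, against 2.09, 1.61 and 1.18 CPM (1.44, SE 0.29), and its call against WT was lost without *jazQ phyB* replicate 1 or WT replicate 2 or 3 (adjusted p up to 0.0257). *MYB90*, described with anthocyanin, was also among these. Its call against WT was lost without *jazQ phyB* replicate 1 or 2 or any WT library.

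**Figure D5:**
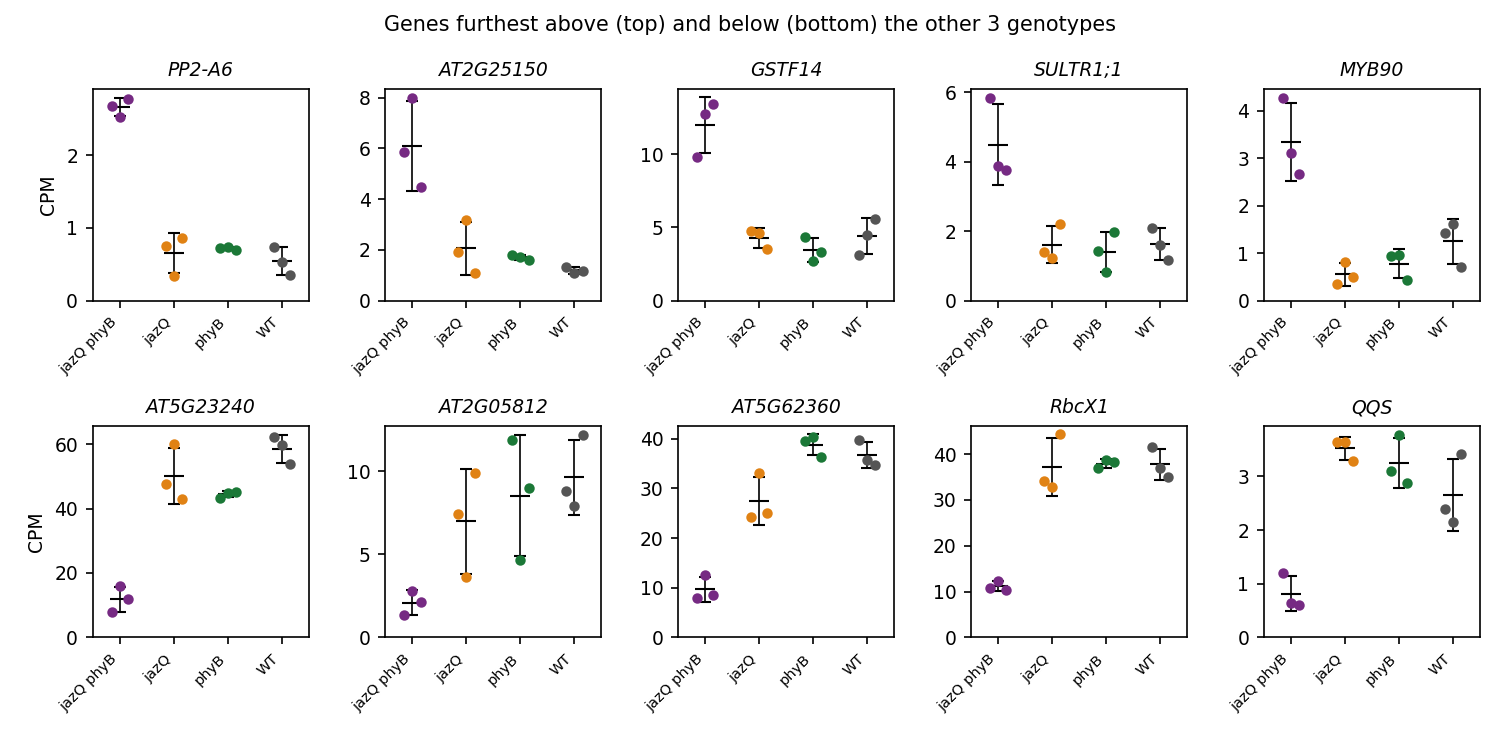
Levels in CPM by library (points) with the mean and SD of 3 libraries, in *jazQ phyB*, *jazQ*, *phyB* and WT, for the 5 genes furthest above (top row) and the 5 furthest below (bottom row) the other genotypes. *RbcX1* is at 10.4 to 12.4 CPM in *jazQ phyB* and at 35 to 41.5 CPM in WT.

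Some calls lay next to each other on the chromosomes. Beside the mutated loci, 60 neighbouring genes were tested, of which 8 were higher and 5 lower, where 3.75% of all genes tested were higher and 6.02% lower, so the lower count was near the background. *TDX*, a thioredoxin near *JAZ3*, had 165, 147 and 146 CPM in *jazQ phyB*, against 29.9, 28.7 and 28.4 CPM in WT (2.40, SE 0.07, adjusted p = 1.95e-11), and was not called against *jazQ* (−0.10, adjusted p = 0.277), which carries the same insertion. *AT1G19190*, a hydrolase beside *JAZ1*, differed by 1.42 (SE 0.16), with 6.11, 5.7 and 5.68 CPM, against 1.74, 2.45 and 2.47 CPM in WT. Near *JAZ1* were also *LHCA6* (−0.46), *AT1G19170* (0.34) and *AT1G19230* (0.53), near *JAZ3* were *PYD1* (0.40) and *GLN1.3* (0.44), near *JAZ4* were *AT1G48510* (0.85) and *GATB* (−0.35), near *JAZ9* were *CLO4* (0.35), *PGM2* (−0.22) and *NdhL* (−0.40), and near *JAZ10* was *AT5G13240* (−0.29). Of these, *AT1G19170*, *AT1G19230*, *AT1G48510*, *CLO4*, *PGM2*, *NdhL* and *AT5G13240* lost their calls in at least 4 fits without 1 library (adjusted p up to 0.0472).

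Runs of at least 3 adjacent tested genes called in 1 direction numbered 9 for higher and 13 for lower genes. Over all genes tested 3.75% were higher and 6.02% lower, and the number of runs expected at these shares was not worked out. These counts thus do not by themselves show clustering. The genes named here were chosen after their values were seen. The longest run of higher genes held 7 on chromosome 3: *NSP4* (1.19), *PBP1* (0.43), *JAL31* (0.67), *MLP-300B* (0.73), *JAL33* (0.48), *JAL34* (0.63) and *JR1* (0.63), which encode lectin-domain proteins, including the nitrile-specifier protein *NSP4*. A run of 4 was the thalianol cluster on chromosome 5, and the marneral cluster on the same chromosome made a run of 3. The longest run of lower genes held 5 on chromosome 1, the TIR-domain genes *AT1G72900* to *AT1G72940*, with log2 fold changes between −1.85 and −0.81. Tandem copies share sequence, so reads may be split wrongly between them.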

How the data were processed

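The authors ran RSEM (1.2.11 in the submitters' processing notes) on single-end reads against the TAIR10 genes. They deposited an expected count per gene and library, already in whole numbers, and a TPM value scaled for transcript length and library size. RSEM shares reads among near-identical copies by estimate. Genotypes came from the labels. Counts were scaled by TMM and tested in edgeR 4.0.16 (R 4.3.3) with glmQLFit and glmQLFTest across all 12 libraries, for genes past filterByExpr with a minimum count of 10, without a block. Calls needed an adjusted p below 0.01 (Benjamini-Hochberg). Each SE was derived from that test, as the absolute log2 fold change divided by the square root of its F statistic. The code was tested on simulated data.

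Gene names and promoters came from RefSeq tables of TAIR10.1. Named genes were the mutated genes; the 12 largest rises and falls against WT among called genes with a mean of at least 1 CPM and no overlap; the 6 rises and 6 falls largest in TPM; up to 4 members of each list described; the 5 genes furthest above and below all other genotypes; and called genes within 5 tested neighbours of a mutated locus. The comparison and the lists were chosen with earlier results of these data known. Alternatives used DESeq2 1.42.0, limma 3.58.1 on log2(TPM + 1) and log2(TPM + 0.1), edgeR's exact test, upper-quartile scaling, other filters and thresholds, a replicate block, only the 2 genotypes compared, nuclear genes alone, and each library left out.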

Additional observations from a re-analysis of the deposited data

How the results depend on the processing

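The count of 2047 genes against WT became 1331 with only the 2 genotypes compared, 3911 at an adjusted p below 0.05 and 395 at 2-fold or more. Higher genes numbered 1331 in log2(TPM + 1), 1276 in log2(TPM + 0.1), 1638 at the looser threshold and 263 at 2-fold. Lower genes numbered 505, 491, 2273 and 132 in the same 4 settings, and 788 with only the 2 genotypes compared. Against *jazQ*, the count of 1422 became 846 with only those genotypes, 3065 at the looser threshold and 196 at 2-fold. Against *phyB*, the count of 2467 became 4559 and 489 at these thresholds. Without 1 library, the counts ran from 1190 to 2163 against WT (454 to 848 higher and 736 to 1315 lower), from 643 to 1568 against *jazQ* and from 1413 to 2599 against *phyB*. DESeq2, edgeR's exact test, upper-quartile scaling, the other filters and nuclear genes alone kept each count against WT within 1.5 times, and the cause of the other shifts was not tested. With a replicate block, 2031 genes were called against WT (794 higher and 1237 lower). Deviations from the genotype means had correlations of −0.00532, 0.0415 and −0.137 between same-numbered *jazQ phyB* and WT libraries. With so few libraries per genotype, these values cannot show whether the numbers mark shared plates. Under the block, 7 of the 134 called named genes lost their call. None of the 268 named genes that was called changed direction in any of the 24 settings, and 88 of the 134 kept their call without each library in turn. Of these calls, 73 were under 2-fold and so were lost at the 2-fold limit, 30 were lost with only the 2 genotypes compared and 22 in log2(TPM + 1). Depth limits low genes: 3 counts correspond to 0.116 to 0.23 CPM in these 6 libraries.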

Other observations

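Groups taken from the deposited gene descriptions, chosen after the values were seen, hold further genes that the lists did not cover. Of 18 genes for thylakoid lumen or PsbP-like proteins, which assist photosystem II inside the chloroplast, 15 were lower in *jazQ phyB* than in WT and none was higher (median log2 fold change −0.40, or −0.29 in log2(TPM + 1)), where 6.02% of all genes tested were lower. Of 90 thioredoxin-type genes, 21 were lower and 2 higher, with a median of −0.04 that was 0.07 in log2(TPM + 1). Of 138 disease resistance genes of the TIR or NBS type, 17 were lower and 2 higher (median −0.07, or 0.04 in log2(TPM + 1)), and of 114 DNAJ genes, 12 were lower and 1 higher (median −0.07, or 0.04 in log2(TPM + 1)). Among the 82 chloroplast-genome genes tested, 17 were lower and none higher (median −0.61), and among 29 mitochondrial ones none was called by edgeR or DESeq2 (4 had an unadjusted p below 0.05, median −0.09). The chloroplast share of the counts was highest in WT replicate 3, and its part in this was not tested.

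Cell wall and cytochrome P450 genes held more higher than lower calls, where 3.75% of all genes tested were higher and 6.02% lower. Of 39 extensin-type genes, which encode structural wall proteins, 10 were higher and 3 lower (median 0.30). Of 55 class III peroxidase genes, which crosslink or loosen walls, 12 were higher and 1 lower (median 0.29). Of 177 cytochrome P450 genes, which serve hormone and defence metabolism, 34 were higher and 14 lower (median 0.17), the lower count being near that background. Of 118 pectin lyase and pectinesterase genes, 11 were higher and 3 lower (median 0.10). The medians of these 4 groups were 0.34, 0.35, 0.20 and 0.19 in log2(TPM + 1), where the median of all genes tested was 0.10. Root hair markers summed to 75.1 to 79.5 TPM in *jazQ phyB* and 44.1 to 56.7 TPM in WT, and their part in these groups was not tested.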
